A study of Rattus norvegicus with 13 samples.

Results

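Rat chromosome 10 was described without its ends, as the 108627 consecutive windows of 1000 bp whose starts run from 2000001 to 110626001 in the build Rnor_6.0. These are part of 112627 windows on the whole chromosome and of 2782040 windows in the series. The chromosome was selected on its signal in morulae against sperm in these same libraries, so every morula and sperm value below is a description without a test, and the comparisons of the DDT with the control lineage are the tested ones. Of the windows, 2354 held no count in any library, and all windows entered the sums given below, whether or not they held counts.

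The measurement was methylated DNA immunoprecipitation with sequencing (MeDIP-seq), in which an antibody to 5-methylcytosine enriches methylated fragments before they are sequenced. There were 13 libraries in 4 groups, namely 3 of control morulae, 3 of DDT morulae, 3 of control sperm and 4 of DDT sperm. All rats were outbred Hsd:Sprague Dawley SD animals. Gestating F0 females were injected with the insecticide DDT or with the vehicle dimethyl sulfoxide (DMSO) from day 8 to day 14 of gestation, no later generation was treated, and both lineages were bred on to generation F3. Cauda epididymal sperm came from F3 males. Morulae came from intracytoplasmic injection of such sperm into eggs of Sprague Dawley females, so DDT and control morulae differ by lineage on the paternal side. Morula libraries are pools of embryos and hold maternal as well as paternal chromosomes. No label says that replicates of a group came from separate animals, so p-values measure only the spread between these libraries.

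As background, sperm DNA is densely methylated outside CpG islands, and after fertilisation most of this methylation is lost from both parental genomes by the morula and blastocyst stages, while imprinted regions and some repeats keep theirs. MeDIP signal rises with the number of methylated CpG in a fragment, so regions rich in CpG and methylated give the strongest signal. The unit of signal is CPM, a window's count for every 1000000 counts in its library. It is a share of each library, so a loss of methylation over the whole genome does not lower the sum of CPM. How such a loss moves the CPM of single windows was not tested.

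Chromosome 10 held 1278676 to 8725880 counts per library, a mean of 11.8 to 80.3 counts per window. Summed over steps of 1 Mb, the lowest count of any library in any step was 6260, in control sperm replicate 3, a counting error of 1.26%. A pair of sperm libraries, replicate 3 of the controls and replicate 4 of the DDT lineage, was unlike the rest and is called the outlying pair: 8.93% and 7.57% of their windows on the chromosome had no count, against 2.62% to 3.29% in the other 11. Over the 109 steps of chromosome 10 their log2 CPM correlated at r = 0.992 with each other, at 0.852 to 0.911 with the other 5 sperm libraries, and those 5 at 0.970 to 0.998 among themselves. The pair were also the shallowest of all libraries, with 30386626 and 33684143 counts in total. The other 5 sperm libraries had 104860839 to 193750804. The part of depth in the difference was not tested. Among morula libraries r was 0.943 to 0.984, and between a morula and a sperm library it was 0.0454 to 0.580, so the course of the signal along the chromosome separated the tissues as labelled.

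The level of the whole chromosome was lower in every morula library than in every sperm library. Mean signal per window was 0.338, 0.343 and 0.334 CPM in control morulae and 0.328, 0.338 and 0.338 CPM in DDT morulae. It was 0.404, 0.415 and 0.387 CPM in control sperm and 0.415, 0.415, 0.410 and 0.389 CPM in DDT sperm, where the last value of the first group and of the second group belong to the outlying pair. The groups of both tissues did not overlap, and the lineages did overlap within each tissue. Control morulae had a mean of 0.338 ± 0.0044 CPM (SD, n = 3) and control sperm 0.402 ± 0.0137 CPM (n = 3), a log2 ratio of -0.25, or 15.8% lower in morulae. DDT morulae had 0.335 ± 0.0059 CPM (n = 3) and DDT sperm 0.407 ± 0.0124 CPM (n = 4), a log2 ratio of -0.28, or 17.7% lower. Without the pair the log2 ratios were -0.27 and -0.30.

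Set against the other 19 autosomes, with 2 Mb left out at each end of every chromosome, chromosome 10 lay below their mean in morulae and above it in sperm. Its level divided by theirs was 0.899 to 0.935 in the 6 morula libraries and 1.05 to 1.12 in the 7 sperm libraries. In control morulae the other autosomes ran from 0.351 to 0.394 CPM and in DDT morulae from 0.348 to 0.396 CPM, so chromosome 10 was the lowest of the 20 in both groups. In control sperm it ranked 4 from the highest among 20, within a range from 0.350 to 0.444 CPM for the others, and it ranked 4 in DDT sperm too. Taken relative to the other autosomes in the same library, which no scaling of whole libraries can move, the log2 ratio of morula to sperm was -0.23 for the controls and -0.27 for DDT. On plain CPM, chromosome 12 leaned further toward low morula signal in both lineages (log2 ratios of -0.33 and -0.39), and chromosome 20 did so in the control lineage (-0.27) but not in the DDT lineage (-0.27 against -0.28). Those differ from chromosome 10 in their starting point, since chromosomes 12 and 20 had more sperm signal (0.444 and 0.422 CPM in control sperm) and morula signal of 0.352 and 0.351 CPM.

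**Figure D1:**
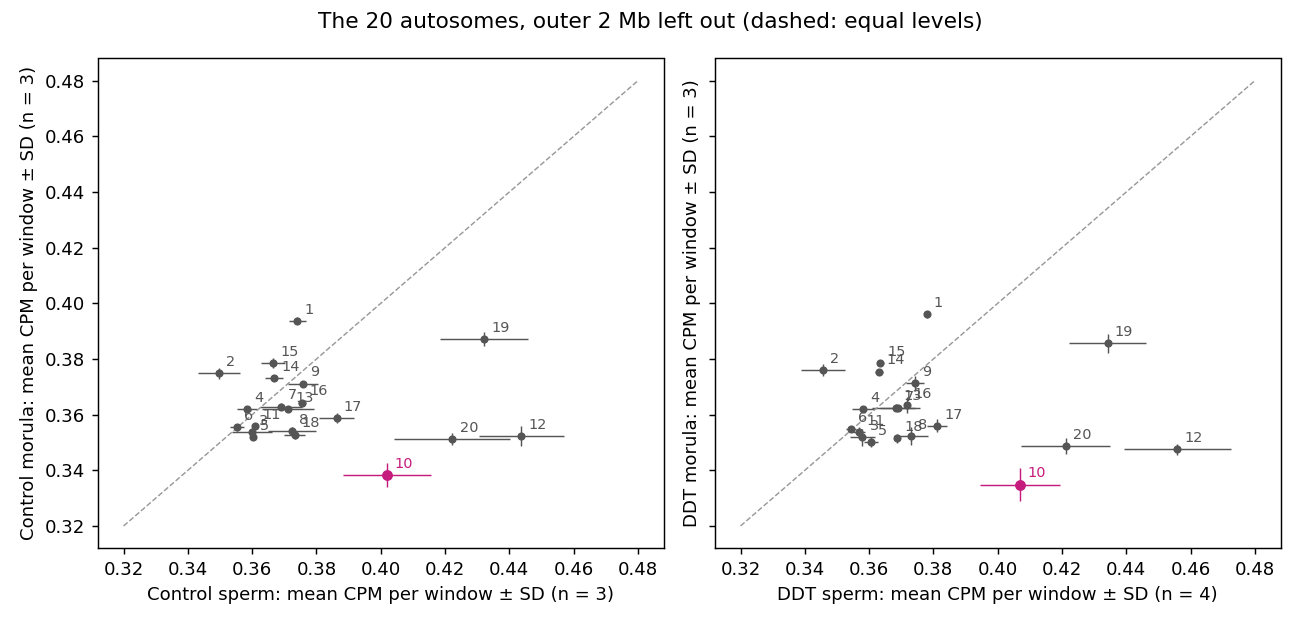
Mean CPM per window of each of the 20 autosomes in morulae (vertical axis) against sperm (horizontal axis), control lineage on the left and DDT lineage on the right; points are group means, bars are SD over the libraries, and the dashed line marks equal levels. Chromosome 10 is the lowest point on the vertical axis in both panels, at 0.338 and 0.335 CPM.

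Along the chromosome, sperm signal rose and fell while morula signal stayed close to level. The steps of chromosome 10 ran from 0.261 to 0.495 CPM per window in control morulae and from 0.247 to 0.603 CPM in control sperm. In DDT morulae they ran from 0.258 to 0.498 CPM and in DDT sperm from 0.250 to 0.609 CPM. The SD over the 109 steps of log2 CPM was 0.13 in control and in DDT morulae, and 0.25 and 0.26 in control and DDT sperm. Each of the 6 morula libraries gave an SD of 0.12 to 0.16 and each of the 7 sperm libraries one of 0.22 to 0.30, so no morula library was as uneven as any sperm library. Chromosome 10 had the smallest such SD of the 20 autosomes in all 4 groups. Over the 2429 steps of the other autosomes pooled, the SD was 0.26 and 0.28 in the morula groups and 0.34 and 0.35 in the sperm groups.

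**Figure D2:**
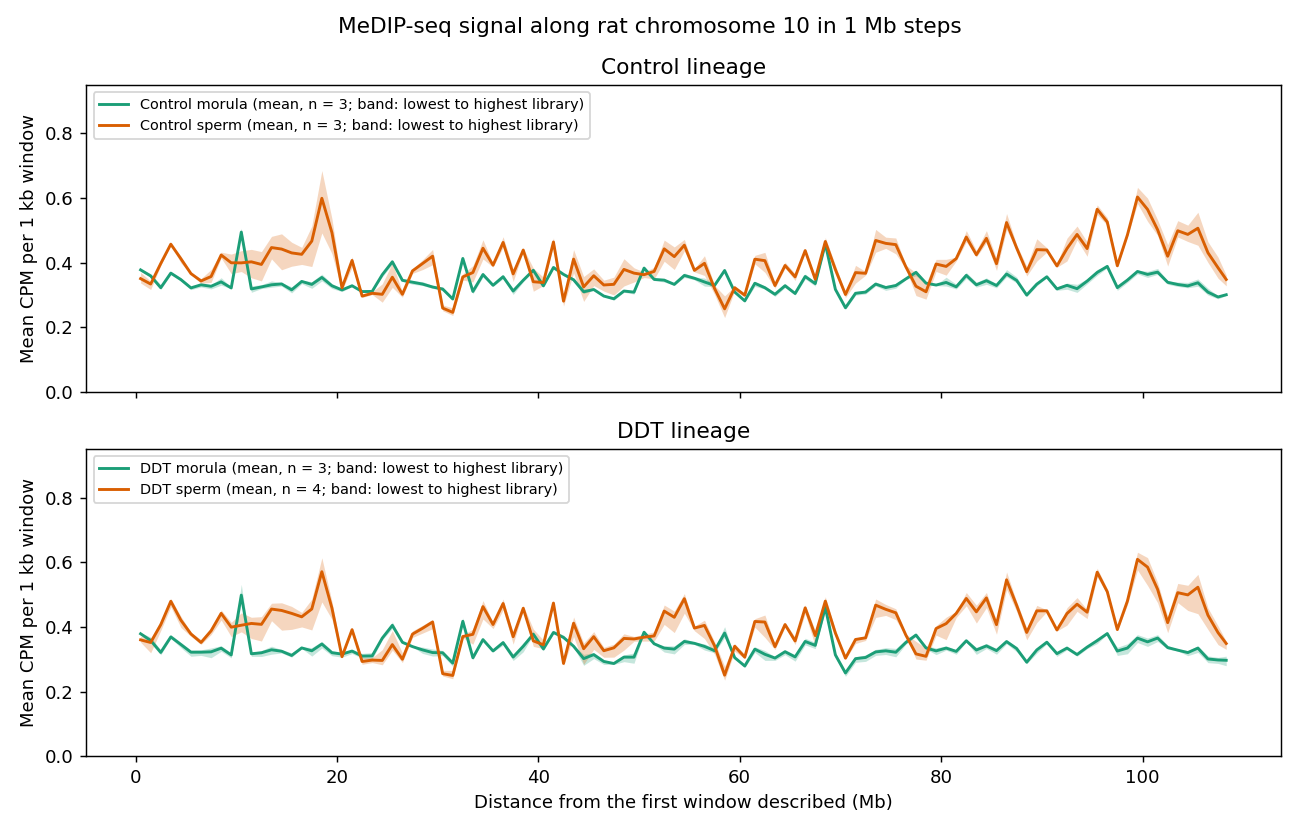
Mean CPM per 1 kb window in 1 Mb steps along chromosome 10, by distance from the first window described, in the control lineage (top) and the DDT lineage (bottom); lines are group means and bands run from the lowest to the highest library. The sperm line lies above the morula line over most of the chromosome and reaches 0.603 CPM in control sperm, while the control morula line stays between 0.261 and 0.495 CPM.

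Most steps were lower in morulae. In the control lineage all 3 morula libraries lay below all 3 sperm libraries in 85 of 109 steps, where 44.6% of all 2538 autosomal steps did so, and above them in 14, where 41.9% of all steps did so. In the DDT lineage all morula libraries lay below all 4 sperm libraries in 86 steps (45.1% of all steps) and above them in 12 (41.8% of all steps). Both lineages were lower without overlap in the same 85 steps (43.0% of all autosomal steps), and both were higher in 10 (40.1% of all). The number of higher steps depends on the scale: with trimmed-mean (TMM) scaling every log2 ratio shifts by -0.14 in the control and by -0.15 in the DDT lineage, and 1 and 3 steps were then higher without overlap. The log2 ratio was below 0 in 91 of 109 steps in each lineage, against 50.2% and 50.0% of steps of the other autosomes. Extreme steps were not frequent: 11 steps for the controls and 15 for DDT had a log2 ratio below -0.5, which is 10.1% and 13.8%, against 7.70% and 9.84% on the other autosomes. At the other side, 7 and 9 steps had a ratio above 0.2, or 6.42% and 8.26%, against 32.8% and 34.3%. Against the other autosomes pooled, the distance was thus wider in the share of high steps than in that of very low ones. Some single chromosomes leaned alike: 83.7% of steps on chromosome 12 were below 0 in each lineage, against 83.5% on chromosome 10, and chromosome 19 had 74.1% in each lineage and chromosome 20 had 71.2% and 69.2%.

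The 2 lineages, which share no library, gave nearly the same profile of ratios. Their log2 ratios correlated at r = 0.985 (rho = 0.979) over the 109 steps, which are not independent, since neighbouring steps correlated at 0.517 for the controls and 0.510 for DDT. The ratio ran against the level in sperm, which is its denominator. Sperm levels varied more over the steps than morula levels and were alike in both lineages. A negative correlation follows largely from this, also across lineages, and is no separate result. With the sperm level of one lineage set against the ratio of the other, r was -0.844 for the control ratio and -0.859 for the DDT ratio. With the morula level of the other lineage r was 0.265 and 0.170. Morula and sperm levels themselves correlated at 0.333 for the controls and 0.266 for DDT over the same steps.

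**Figure D3:**
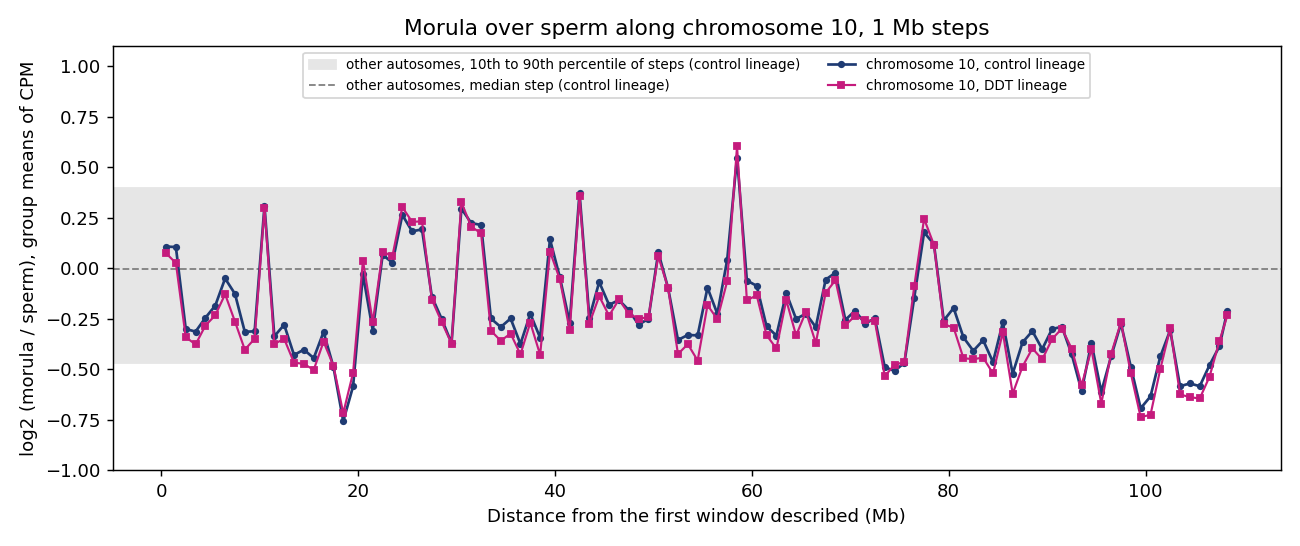
Log2 ratio of group mean CPM, morula over sperm, in 1 Mb steps along chromosome 10, by distance from the first window described, for the control lineage (circles) and the DDT lineage (squares); the grey band and dashed line give the 10th to 90th percentile and the median of steps on the other autosomes in the control lineage. In each lineage 91 of 109 steps lie below 0, and the stretch at the right end stays below it without a break.

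The longest stretch on one side covered the distal part of the chromosome. The 30 steps from 81000001 to 110627000 were all below the median autosomal step, whose mean log2 ratio over both lineages was -0.02. Their median log2 ratio was -0.40 for the controls and -0.45 for DDT. Mean signal there was 0.339 CPM in control and 0.333 CPM in DDT morulae, close to the means of the whole chromosome, and 0.456 CPM in control and 0.463 CPM in DDT sperm. The longest stretch above the median step had 5 steps, from 24000001 to 29000000, with median log2 ratios of 0.18 and 0.23. Its morula signal was 0.347 and 0.349 CPM and its sperm signal 0.313 and 0.306 CPM. Both stretches thus had similar morula levels and different sperm levels. In all, 90 steps lay below the median autosomal step and 19 above it.

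The lowest and highest steps were picked for their ratios and are described library by library. That the tissues stand apart in them, or that their pieces of 100 kb share a sign, follows largely from this pick and is no separate result. The lowest was the step from 20000001 to 21000000. Control morulae had 0.355, 0.365 and 0.344 CPM there and DDT morulae 0.335, 0.355 and 0.351 CPM. Control sperm had 0.621, 0.685 and 0.492 CPM, and DDT sperm had 0.612, 0.614, 0.579 and 0.477 CPM. All 6 morula libraries lay below all 7 sperm libraries, and within each sperm group the library of the outlying pair was the lowest. The log2 ratios were -0.76 and -0.72, and all 10 pieces of 100 kb within the step had a mean ratio below 0, from -0.98 to -0.38.

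The other low steps lay in the distal stretch. The step from 101000001 to 102000000 had the highest mean of control sperm on the chromosome, 0.603 ± 0.0264 CPM (SD, n = 3), against 0.373 ± 0.00663 CPM in control morulae (n = 3). Its DDT sperm had 0.609 ± 0.0253 CPM (n = 4) and its DDT morulae 0.365 ± 0.0124 CPM (n = 3). The adjoining step from 102000001 to 103000000 and the steps at 97000001 and 107000001 followed. Their log2 ratios were -0.63, -0.61 and -0.58 for the controls and -0.73, -0.67 and -0.64 for DDT. In each of these 4 steps all 10 pieces of 100 kb were below 0.

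Of the 5 steps with the highest ratios, 4 had low sperm signal, and all but that at 32000001 had morula signal above its median step of 0.333 CPM in controls and 0.329 CPM in DDT. The step from 60000001 to 61000000 had the highest ratio. Control morulae had 0.377, 0.373 and 0.378 CPM and DDT morulae 0.401, 0.375 and 0.367 CPM. Control sperm had 0.244, 0.230 and 0.297 CPM, and DDT sperm had 0.241, 0.235, 0.249 and 0.278 CPM. The tissues did not overlap, the outlying pair held the highest value of each sperm group, and the log2 ratios were 0.55 and 0.60. The steps at 44000001, 32000001 and 26000001 had 0.281, 0.260 and 0.302 CPM in control sperm and 0.364, 0.319 and 0.363 CPM in control morulae. In the first of these the ratio was uneven, from -0.16 to 1.22 over its 10 pieces. The step from 12000001 to 13000000 was different, with ordinary signal in control sperm (0.400 ± 0.0336 CPM, n = 3) and the highest morula signal of the chromosome (0.495 ± 0.0106 CPM, n = 3).

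The direction also changed near the ends. In the first 2 Mb, which the selection left out, control morulae had 0.430 CPM and control sperm 0.320 CPM, a log2 ratio of 0.42, and the DDT lineage gave 0.40. The first 1 Mb inside the selection had log2 ratios of 0.11 and 0.07. At the other end the last 1 Mb inside had -0.21 for the controls and -0.20 for DDT, and the last 2 Mb, left out, had 0.57 and 0.54.

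At the scale of single windows the lean was less plain. In the control lineage 18996 of 108627 windows had all morula libraries below all sperm libraries, where 12.8% of all autosomal windows did so, and 21587 had them above, where 26.3% of all windows did so. In the DDT lineage 19560 windows were lower (13.1% of all) and 18214 higher (23.1% of all). On chromosome 10 these counts are 17.5% and 18.0% of windows lower and 19.9% and 16.8% higher. So higher windows outnumbered lower ones in the control lineage, while the summed signal was lower. The median window, with 0.05 CPM added to each mean, had a log2 ratio of -0.03 for the controls and -0.07 for DDT, against 0.12 and 0.10 on the other autosomes. Both lineages were lower in 11197 windows, or 10.3% of chromosome 10, where 7.2% of all autosomal windows were. Both were higher in 12135, or 11.2%, where 16.0% of all were.

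The lower sum lay in windows of strong signal. The median window had 0.301 CPM in control morulae and 0.315 CPM in control sperm, while at the 90th percentile the values were 0.483 and 0.823 CPM. At the 10th percentile control morulae were the higher, with 0.175 against 0.0697 CPM. The other autosomes had the same arrangement. There control morulae had 0.146 CPM against 0.0431 CPM in control sperm at the 10th percentile, and 0.537 against 0.795 CPM at the 90th. Windows with a group mean of at least 1 CPM made up 1.78% of the chromosome in control and 1.83% in DDT morulae, against 3.86% and 3.96% on the other autosomes. In sperm they made up 5.54% and 6.04%, against 5.58% and 5.82% elsewhere. Chromosome 10 therefore had about the usual share of such windows in sperm and a smaller share in morulae. They held 9.74% of its counts in control morulae and 19.5% in control sperm.

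Windows of all autosomes were also placed in 10 classes of equal size by mean log2 signal of both tissues. Chromosome 10 held 5.87% of its windows in class 1, the weakest, and 12.2% in class 8, against 10.2% and 9.90% on the other autosomes. From class 3 to class 9 its median log2 ratio differed from that of the other autosomes by -0.12 to -0.02 in the control lineage. In class 10 the median was -0.71 against -0.25, and in the DDT lineage -0.91 against -0.41. Class 10 windows of chromosome 10 had a mean of 0.811 CPM in control morulae and 1.15 CPM in control sperm, and those of the other autosomes had 1.12 and 1.18 CPM. With classes formed from morula signal alone, the median over classes of the difference between chromosome 10 and the other autosomes moved from -0.07 to -0.18 in controls and from -0.07 to -0.20 in DDT, and with classes from sperm signal alone it moved to -0.03 and -0.05. The difference in class 10 was -0.38 and -0.58 by morula signal and -0.22 and -0.19 by sperm signal, against -0.46 and -0.51 by both. In each of these 3 ways, class 10 had the most negative difference. In class 10 by both tissues, sperm levels were close to those of the other autosomes and morula levels were not. Summed over the windows of chromosome 10 in a class, control morulae minus control sperm came to -2240, -3757 and -3367 CPM in classes 8, 9 and 10, and to 1149 and 1136 CPM in classes 2 and 3. Windows of the other autosomes in classes 8 and 9 were lower in morulae too. Their means were 0.374 and 0.440 CPM in control morulae against 0.506 and 0.664 CPM in control sperm. Classes formed from the same libraries as the ratio share their counting noise with it.

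**Figure D4:**
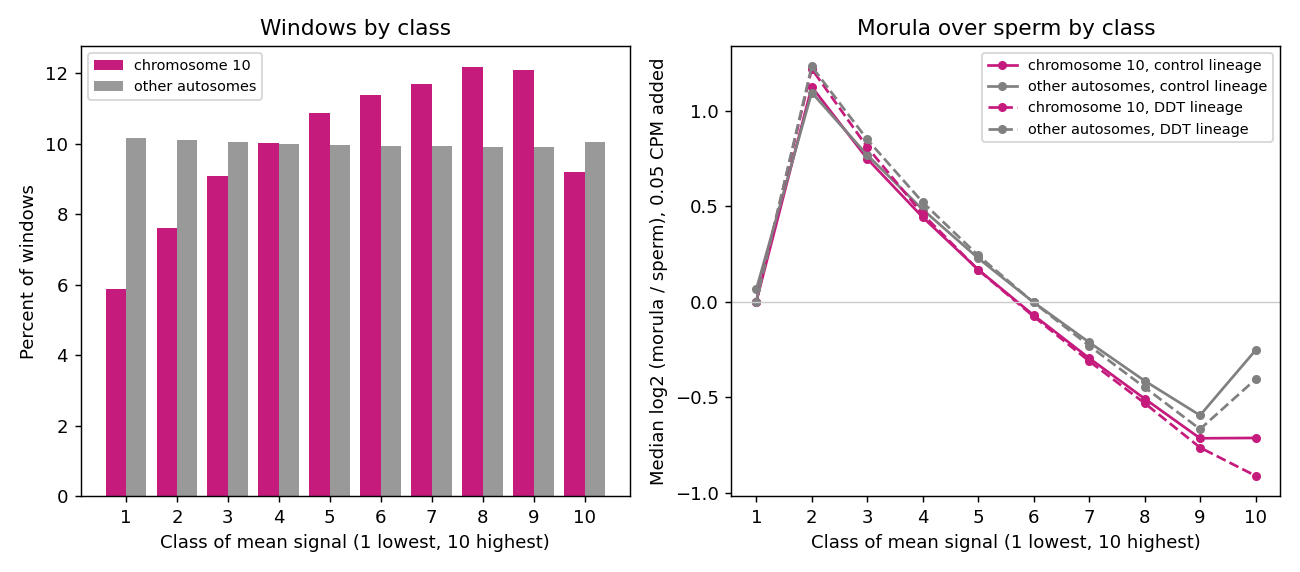
Left, percent of windows in each of 10 classes of mean signal (1 weakest, 10 strongest) for chromosome 10 and the other autosomes; right, median log2 ratio of morula to sperm CPM in each class, with 0.05 CPM added, for both lineages (solid, control; dashed, DDT). The lines of chromosome 10 and the other autosomes run close together up to class 9 and separate in class 10, at -0.71 against -0.25 in the control lineage.

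Single windows with the largest ratios were taken from those with at least 1 CPM in the higher tissue and no overlap between tissues in either lineage. There were 2519 such windows lower in morulae, or 2.32% of the chromosome, where 1.6% of all autosomal windows were. Those higher numbered 542, or 0.499%, where 1.43% of all were. The most negative lay at 29100001 to 29101000. Control morulae had 0.289, 0.425 and 0.225 CPM, and DDT morulae had 0.0793, 0.172 and 0 CPM, the last from 0 counts, where 3 counts would be 0.0749 CPM. Control sperm had 1.04, 1.24 and 1.88 CPM, and DDT sperm had 1.02, 1.09, 1.11 and 2.11 CPM. The tissues lay far apart, and the outlying pair had the highest value of each sperm group. With 0.05 CPM added, the log2 ratios were -1.99 and -3.37. The windows at 84344001, 88723001 and 15116001 followed, with ratios of -2.28, -2.06 and -2.51 for the controls and -2.91, -2.89 and -2.32 for DDT. In all of them as well, the outlying pair gave the highest value of each sperm group.

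The most positive window lay at 65106001 to 65107000. Control morulae had 1.00, 1.19 and 1.57 CPM and DDT morulae 1.67, 1.69 and 1.97 CPM. Control sperm had 0.0415, 0.0981 and 0.132 CPM and DDT sperm 0.223, 0.0477, 0.0935 and 0.327 CPM, from 4 to 25 counts per library. The log2 ratios were 3.22 and 3.04. The windows at 59151001, 8006001 and 14383001 had ratios of 2.40, 2.18 and 2.46 for the controls and 2.65, 2.55 and 2.24 for DDT. Which genes these windows fall in is not given here, since the gene table at hand belongs to another build, and no sequence was read at their coordinates.

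Gene density could be compared only by chromosome, with the RefSeq promoters of the assembly GRCr8. Chromosome 10 had 2236 promoters of 300 bp in that table, or 21.0 per Mb between the first and the last of them, the highest value of the 20 autosomes. Its promoters held 13.6 CG dinucleotides on average, second to chromosome 12. Over the 20 autosomes the log2 ratio of morula to sperm ran against promoters per Mb, at r = -0.790 (rho = -0.516) in the control and r = -0.822 (rho = -0.559) in the DDT lineage. Without chromosome 10, which was chosen for its ratio, r was -0.747 and -0.785. The level in sperm followed promoters per Mb (r = 0.796 and 0.833), and the level in morulae did not follow it as closely (r = -0.235 and -0.283). All autosomes come from the same libraries, so these are descriptions over 20 points.

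The question of the DDT comparison is whether chromosome 10 differs between lineages, in F3 sperm and in morulae made with such sperm. As a whole it did not differ detectably. Its share of autosomal counts was 3.96%, 4.01% and 3.92% in control morulae and 3.87%, 3.96% and 3.97% in DDT morulae. The groups overlapped, with means of 3.97% ± 0.047 and 3.93% ± 0.057 (SD, n = 3 each; two-sided exact permutation test, p = 0.6, smallest possible 0.1). In sperm the share was 4.64%, 4.76% and 4.49% in control and 4.78%, 4.78%, 4.73% and 4.51% in DDT libraries. The means were 4.63% ± 0.133 (n = 3) and 4.70% ± 0.128 (n = 4), and the groups overlapped (two-sided exact permutation test, p = 0.457, smallest possible 0.0286). Adjusted over both tests, p was 0.6 for each. The DDT mean minus the control mean in sperm was 0.0672 percentage points. It was -0.00203 without control sperm replicate 3 alone, 0.130 without DDT sperm replicate 4 alone and 0.0608 without both of this outlying pair.

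Step by step, edgeR's quasi-likelihood test with Benjamini-Hochberg adjustment over the 2701 steps of the genome called 0 of 109 steps of chromosome 10 in morulae (0.0% called genome-wide) and 0 of 109 in sperm (0.0% genome-wide). The test of whether the DDT difference differed between morulae and sperm called 0 of 109 as well (0.0% genome-wide). At an unadjusted p under 0.05 there were 0 steps of chromosome 10 in morulae, against 2.33% of the genome's steps. In sperm there were 3, all higher in DDT, which is 2.75% against 2.11% of the genome's steps. DESeq2 as the test called 0 as well, and gave 4 and 3 steps at that level, or 3.67% and 2.75%, against 6.07% and 2.89% of the genome's steps. The differences in morulae were small throughout, from -0.05 to 0.04 on the log2 scale, with a median of -0.01. In sperm they ran from -0.10 to 0.12, with a median of 0.02.

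The step with the smallest p in sperm was that from 9000001 to 10000000. Control sperm had 0.354, 0.339 and 0.379 CPM, and DDT sperm had 0.376, 0.386, 0.390 and 0.399 CPM. The groups overlapped only through control sperm replicate 3. The log2 difference was 0.12 (SE 0.04, edgeR adjusted p = 1.0). The steps at 83000001 and 57000001 were next, with log2 differences of 0.10 and 0.08. In both, every DDT sperm library was above every control sperm library. The steps at 5000001 and 40000001, not named by this rule, had the same order. How often all 109 steps had it is not given here, so it does not set the named steps apart. Their morula differences were 0.0017 and -0.0046, and the difference between tissues did not pass the test (edgeR adjusted p = 1.0).

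The sperm result depended on the outlying pair. Without them, in a fit of 2 control and 3 DDT libraries chosen after seeing the data, edgeR called 15 of 109 steps as higher in DDT, where 9.55% of the genome's steps were called, and 7 as lower, where 5.59% were. The higher steps differed by 4.49% to 11.1% and the lower ones by 4.08% to 10.4% of the control level. In all 22 the 5 libraries did not overlap by lineage, which adds nothing to the calls, as they were made on those 5. With the pair added back, all 7 libraries did not overlap in 4 of the higher and 1 of the lower steps. DDT sperm replicate 4 lay on the called side of control sperm replicate 3 in 14 of the 15 higher steps and in 3 of the 7 lower ones. How often all 109 steps had these arrangements is not given here, so the counts do not set the called steps apart.

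When the pair was kept and given a term of its own, 7 of 109 steps were called, all higher in DDT, or 6.42%. Genome-wide 5.18% of steps were called higher and 1.67% lower in that fit. All 7 were among the 15 higher steps above, which were called on 5 of the same libraries, and 0 of the 7 lower steps were called. The 7 were those at 9000001, 41000001, 57000001, 59000001, 61000001, 69000001 and 83000001. At 69000001 control sperm had 0.358, 0.355 and 0.334 CPM and DDT sperm 0.380, 0.384, 0.389 and 0.340 CPM, so each group was lowest in its library of the outlying pair. In morulae 7 of the 15 higher and 5 of the 7 lower steps had the same sign, none of them past the test. Of all 109 steps of chromosome 10, 33 were above 0 and 76 below it in morulae, so the count of lower steps was near the share of all steps. The number of calls also rested on single libraries among the 5, being 29 or 33 when replicate 1 or 2 of the control sperm was left out, and 11, 12 or 19 when replicate 1, 2 or 3 of the DDT sperm was. A fit with either control library left out keeps 1 control library, which is assumed to vary like the DDT ones. In the test of the difference between tissues without the pair, 1 step of chromosome 10 was called, against 2.26% of the genome's steps.

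**Figure D5:**
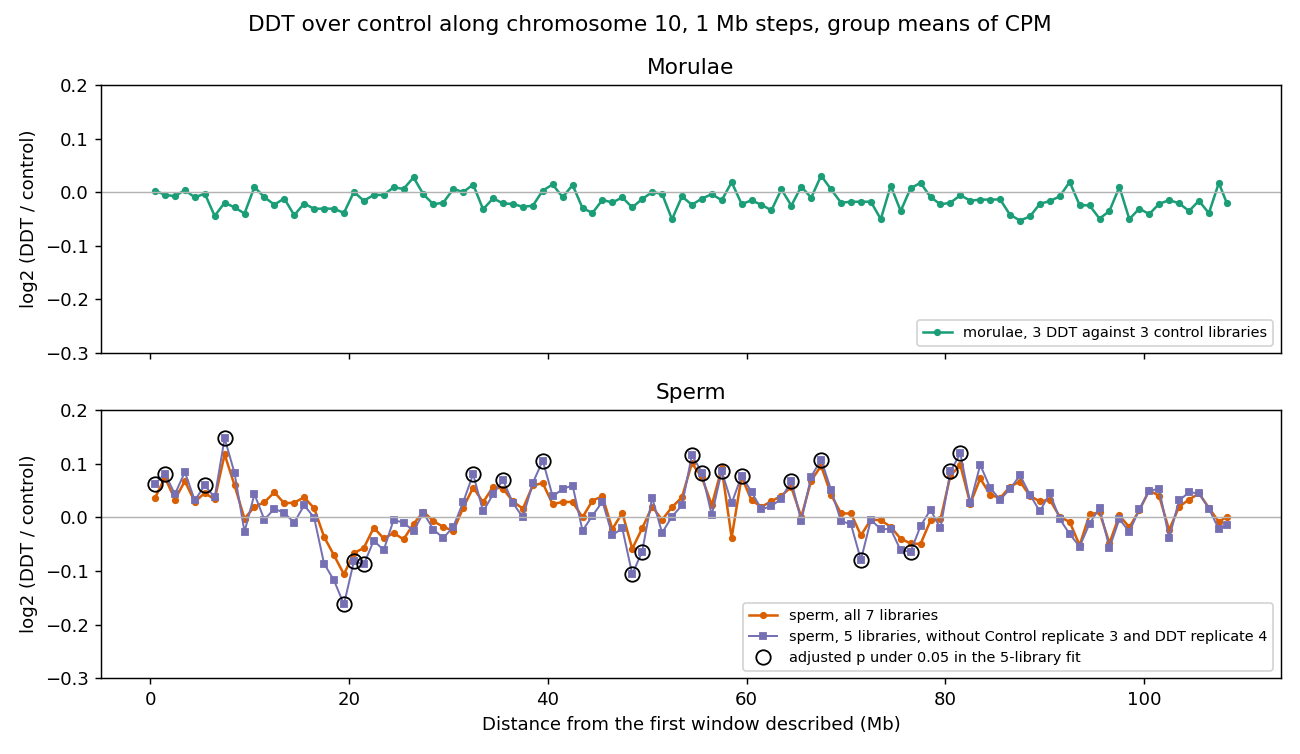
Log2 ratio of DDT to control group means of CPM in 1 Mb steps along chromosome 10, by distance from the first window described, in morulae (top) and sperm (bottom, with all 7 libraries and with 5); circles mark the 22 steps with an adjusted p under 0.05 in the fit of 5 sperm libraries. Morula values stay near 0, and the sperm values with 7 and with 5 libraries follow each other, with none of the 7-library differences past the test.

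Single windows gave a similar result. Of the windows, 104376 had at least 5 counts per library on average in morulae and 101817 in sperm, and were tested. edgeR called 0 of them in morulae (0.0% of 2568322 windows genome-wide) and 0 in sperm (0.0% of 2454365). At an unadjusted p under 0.05 there were 4792 windows in morulae, or 4.59% of those tested on chromosome 10 against 4.52% in the genome, and 4097 in sperm, or 4.02% against 4.53%. DESeq2 also called 0 windows of chromosome 10 in both. The adjusted p in the authors' deposited table was under 0.05 for 0 of 93368 windows of chromosome 10 in morulae and 0 of 94594 in sperm, with smallest values of 0.0930 and 0.0716. Genome-wide that table has 2 such windows of 2161644 in morulae and 28 of 2182744 in sperm.

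In morulae the window of smallest p lay at 84244001 to 84245000, with 0.0607, 0.119 and 0.102 CPM in control and 0.317, 0.588 and 0.549 CPM in DDT libraries. These come from 4 to 7 and 12 to 24 counts, the groups did not overlap, and the log2 difference was 2.38 (SE 0.48, edgeR adjusted p = 1.0). Sperm had at most 0.0572 CPM there. Among the lower windows, that at 30216001 had 0.410, 0.340 and 0.634 CPM in control and 0.159, 0.0490 and 0.0749 CPM in DDT morulae, a log2 difference of -2.24 (edgeR adjusted p = 1.0). The other windows named by the same rule, at 74000001 and 37338001 (higher) and at 90397001 and 32344001 (lower), had log2 differences from -3.33 to 1.64, and none passed.

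In sperm the window of smallest p lay at 56486001 to 56487000. Control sperm had 0.166, 0.191 and 0.197 CPM and DDT sperm 0.554, 0.544, 0.701 and 0.356 CPM. Here the outlying pair fell on the same side as the rest of its lineage, and the log2 difference was 1.64 (SE 0.33, edgeR adjusted p = 1.0). Morulae had 0.554 ± 0.320 CPM in control and 0.617 ± 0.150 CPM in DDT libraries (SD, n = 3 each), and these groups overlapped. Whether the DDT difference differs between tissues was not tested on windows. The windows at 93710001 and 56605001 were also higher, by 1.85 and 1.77, and those at 27386001, 21789001 and 103357001 were lower, by fits of -1.58, -2.75 and -1.57, and the lineages did not overlap in any of these 6 windows, which were picked for a small p.

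Without the pair, again chosen after seeing the data, edgeR called 7009 windows of chromosome 10 as higher and 3714 as lower in DDT sperm, of 103166 tested. That is 6.79% and 3.60%, beside 5.93% and 3.56% of the genome's windows. All 6 windows named for sperm passed in that fit. They had been picked for a small p in a fit that holds the same libraries, so this is no separate support for them. The share of lower calls on chromosome 10 was near that of the genome.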

How the data were processed

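The values used are the authors' deposited raw counts in 1000 bp windows of Rnor_6.0, for 13 libraries. Per the submitters' processing notes, Bowtie2 and Trimmomatic were among the tools, with FastQC, edgeR and SAMtools, no versions being stated, and whether duplicate reads were removed is not given in the sources used here. The deposited log2 fold changes and adjusted p-values of the authors' edgeR run were read only to count windows, and 13 further columns of per-sample values were not used. CPM is the count divided by the column sum. Steps are sums over 1 Mb of windows, with 2 Mb left out at each autosome end, and step levels are means per window.

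DDT and control were compared by the two-sided quasi-likelihood test of edgeR 4.0.16 in R 4.3.3, with TMM scaling, within each tissue, and across tissues by an interaction term. Fits of steps covered all steps with at least 500 windows holding a count, X and Y included, while MT is too short for such a step. Fits of windows covered all windows averaging 5 counts or more over the libraries, X, Y and MT included. Steps used trended dispersions and windows a common one. A call is a Benjamini-Hochberg adjusted p under 0.05. SE was taken from the effect and its test. Shares were compared by exact permutation tests (scipy 1.17.1).

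Other settings tried were DESeq2 1.42.0 as a test, its size factors within edgeR, plain library sizes, other filters, steps of 100 kb, signal classes from 1 tissue alone, removal of the windows of highest count (0.1%), a replicate block and removal of each library. Settings for the outlying sperm pair (control replicate 3, DDT replicate 4) were chosen after the data were seen. Named steps were the 5 lowest and 5 highest ratios and the 3 of smallest p per direction in each fit, and named windows the 4 most extreme ratios per side and the 3 of smallest p per direction. The members, these rules and the lists were chosen with earlier results of these data known. The fits with all libraries were tested on simulated data, in which the changes put into steps were larger than the DDT differences given here for steps. The fits without the outlying pair, or with a term for it, were not tested in this way. Floors and counting errors describe counting alone, because no molecular identifiers separate molecules from copies. Gene groups of the chromosome were not analysed here, because the gene table at hand is of GRCr8.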

Additional observations from a re-analysis of the deposited data

Results flagged for a closer look

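DDT sperm is the only group with 4 libraries, so only its values were examined for a distant library. Of 44 such sets of values, 4 had 1 library far from the other 3, and in each it was replicate 4, one of the outlying pair. Chance marks about 1 in 20 sets of unselected values, which is no fair reference here, since the steps and windows were picked for extreme ratios or small p. The distance is the gap to the nearest library divided by the whole range, set against Dixon's 95% critical value. At the step from 26000001 the gap was 0.872 of the range, with 0.330 CPM in replicate 4 against 0.283 to 0.289 CPM. At the step from 79000001 it was 0.851, with 0.355 CPM against 0.301 to 0.309 CPM. At the window starting at 29100001 it was 0.919, with 2.11 CPM against 1.02 to 1.11 CPM. At the window starting at 21789001 it was 0.872, with 0 counts against 7 to 8. The part of the low depth of this library (33684143 counts) in these values was not tested.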

How the results depend on the processing

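For chromosome 10, no setting other than those on the outlying sperm pair that was run gave a call: the number called was 0 steps in either DDT comparison or the interaction, under the other scalings, filter, test, step size, removal of the windows of highest count and left-out libraries, and 0 windows in either DDT comparison, under the other scalings, filters, test and left-out libraries. The interaction was not fitted on windows. Without control sperm replicate 3 the difference in the share of counts in sperm reversed to -0.00203 percentage points; leaving out each library in turn gave -0.00203 to 0.130 in sperm and -0.0570 to -0.00165 in morulae. TMM scaling moved the log2 ratio of morula to sperm to -0.38 (control) and -0.43 (DDT), and the number of steps higher in morulae without overlap to 1 and 3; the median over windows was -0.027 and -0.069. Of the settings added after seeing the data, leaving out the outlying pair (control sperm replicate 3, DDT sperm replicate 4) gave 22 called steps in sperm, 1 in the interaction and 10723 called windows, a term for the pair gave 7 steps, and leaving out the pair and 1 more sperm library gave 11 to 33 steps (29, 33, 11, 12 and 19). The cause was not tested. Replicate numbers do not pair the libraries: deviations from the group means over 2538 steps correlated between same-numbered control and DDT libraries at -0.351, 0.429 and -0.489 in morulae and at 0.635, 0.921 and -0.614 in sperm, and control sperm replicate 3 was most like DDT sperm replicate 4 (0.954). With the replicate number as a block, 0 steps and 0 windows of chromosome 10 were called. The shallowest library limits single windows most, with 3 counts equal to 0.0987 CPM.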
